A study of Mus musculus with 10 samples.

Results

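The natriuretic peptide system of the heart was described here as 8 genes, namely the ligand genes *Nppa*, *Nppb* and *Nppc*, the receptor genes *Npr1*, *Npr2* and *Npr3*, and the processing protease genes *Corin* and *Furin*. They were taken by gene name from a table of 54532 genes, and each name matched 1 row. The question was how the transcripts of this system varied between the hearts and between the groups after prolonged MEK inhibition. Hearts came from 10 *Rit1* M90I/+ mice, heterozygous for an activating Noonan syndrome allele of the RAS-related GTPase RIT1. Of these, 5 mice received vehicle alone (vehicle) and 5 received trametinib, an inhibitor of the kinases MEK1 and MEK2 (MEKi). Dosing was daily at 1 mg/kg, began at an age of 4 weeks and lasted 20 weeks. Hearts of both groups were collected 2 hours after the last dose. Both groups carried the allele, produced by crossing conditional *Rit1* M90I males with females of a CMV-Cre deleter line. Recombination was therefore not confined to cardiomyocytes, and no heart without the allele was among the samples.

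The natriuretic peptides ANP and BNP are hormones released by the heart under stretch. They lower blood pressure and blood volume and restrain hypertrophy of the muscle. ANP, encoded by *Nppa*, is made mainly in the atria of the adult heart and is re-expressed in loaded ventricles, whereas BNP, encoded by *Nppb*, is made in both chambers. CNP, encoded by *Nppc*, acts locally and is known from endothelium, cartilage and brain. NPR-A, encoded by *Npr1*, is the guanylyl cyclase receptor of ANP and BNP, NPR-B, encoded by *Npr2*, is that of CNP, and NPR-C, encoded by *Npr3*, removes all 3 peptides from the circulation. The protease corin cleaves the ANP precursor at the cardiomyocyte surface, and furin cleaves the BNP precursor and activates other proproteins.

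*Nppa* and *Nppb* are neighbours on chromosome 4 with 13516 bases between them, and both are read from the plus strand. Their promoters, the 250 bases before the RefSeq start in GRCm38.p6, are shown because the values of both transcripts in single hearts are compared below. Capitals mark matches on either strand to 5 motifs. The letters searched were TATAAA for the core promoter box bound by TBP, TGATAA for zinc finger factors such as GATA4, AGGTGTGA for T-box factors, TNAAGTG for the homeobox factor NKX2-5 and CATTCC for TEAD factors.
Nppa, chr4:148000472-148000721, plus strand: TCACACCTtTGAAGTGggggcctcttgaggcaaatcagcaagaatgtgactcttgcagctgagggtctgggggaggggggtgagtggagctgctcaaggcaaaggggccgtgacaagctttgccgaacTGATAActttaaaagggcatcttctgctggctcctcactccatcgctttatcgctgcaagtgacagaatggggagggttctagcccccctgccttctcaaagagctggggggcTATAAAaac
Nppb, chr4:147985650-147985899, plus strand: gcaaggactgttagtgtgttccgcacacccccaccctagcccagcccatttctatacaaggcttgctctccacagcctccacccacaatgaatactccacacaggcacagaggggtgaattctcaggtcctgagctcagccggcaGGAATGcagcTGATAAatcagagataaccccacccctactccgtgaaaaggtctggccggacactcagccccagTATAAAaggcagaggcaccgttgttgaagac
Both windows held a TATAAA, found in 13.0% of 27025 promoter windows of the same length, and a TGATAA, found in 8.16%. The T-box letters, found in 1.14% of windows, and the NKX2-5 letters, found in 10.04%, were matched in the *Nppa* window and not in the *Nppb* window. The TEAD letters, found in 12.6%, were matched in the *Nppb* window and not in the *Nppa* window. No 2 of the marked matches overlapped. *Nppb* as counted here starts at 147985788, upstream of its RefSeq start. All marked matches of the *Nppb* window therefore lie inside the gene as counted.

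Poly(A)-selected RNA of cardiac tissue was sequenced. Which parts of the heart were taken, and whether atria were among them, is not given in the sources used here. Expression was given as fragment counts scaled by gene length and library size (FPKM). The files hold between 13647167 and 18474002 fragments per heart, so depth was similar across the 10 libraries. Cardiomyocyte transcripts were abundant in every heart, with *Myl2*, the ventricular regulatory light chain, named after its values had been seen, at 4335 FPKM or more. The transcript *Xist*, from the X chromosome, had at most 2 fragments per vehicle heart and at least 1456 per MEKi heart, whereas the Y-linked *Ddx3y* had at least 814 per vehicle heart and 0 in each MEKi heart. The methods of the study state that male and female littermates were used, and the split by these transcripts was the same as the split by treatment, so a difference tied to them and a difference tied to treatment cannot be told apart in any comparison below.

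The ligand transcripts *Nppb* and *Nppa* were the most abundant of the system, and neither differed between the groups beyond the spread of the hearts. *Nppb* was higher than *Nppa* in 10 of 10 hearts (ratio of the 2 means over the hearts, 1.89), although the ranges of both genes over the hearts overlapped. Together they took between 0.0469 and 0.215% of the fragments in a heart.

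*Nppa* (chr4:148000722-148002079, plus strand) was at 194, 209.8, 178, 1298 and 419 FPKM in vehicle hearts 1 to 5. In MEKi hearts 1 to 5, it was at 454, 396, 119, 279.7 and 163 FPKM. Vehicle heart 4 stood far above the others, at 6.42 times the median of the other vehicle hearts, and the remaining 9 hearts of both groups lay within one overlapping range. The group means were 460.0 ± 478 FPKM in vehicle and 282 ± 144 FPKM in MEKi (SD, n = 5 each). On the log2(FPKM + 0.1) scale, the difference of MEKi minus vehicle was −0.40 (SE 0.54, 95% confidence interval −1.60 to 0.79, limma adjusted p = 0.901, exact permutation p = 0.587), which is a 0.755-fold level with an interval from 0.331 to 1.72. The residual spread of *Nppa* was 1.03 on the log2 scale, and 2.84% of the 12602 genes tested had a larger one (median of all genes, 0.246). The interval was correspondingly wide. Without vehicle heart 4, the difference was 0.088 (limma adjusted p = 0.976).

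*Nppb* (chr4:147985788-147987205, plus strand) was at 504, 503, 792, 1379 and 561 FPKM in vehicle hearts 1 to 5, and at 904, 664, 610.2, 702 and 395 FPKM in MEKi hearts 1 to 5. Vehicle heart 4 was again the highest of the 10, at 2.59 times the median of the other vehicle hearts, and MEKi heart 5 was the lowest. The means of 748 ± 372 and 655 ± 183 FPKM (SD, n = 5 each) gave a difference of −0.12 on the log2 scale (SE 0.29, 95% confidence interval −0.76 to 0.51, limma adjusted p = 0.948, exact permutation p = 0.730). Over the 10 hearts, *Nppa* and *Nppb* had a Pearson r of 0.75, and r was 0.44 without vehicle heart 4. The pair shares libraries and a chromosomal neighbourhood, so this r is a description only.

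*Nppc* (chr1:86666291-86670571, minus strand) was near the limit of detection. It had 11 fragments in vehicle heart 4 (0.758 FPKM), 5 in MEKi heart 2 (0.280 FPKM), 2 in MEKi heart 4, 1 in MEKi heart 5 and 0 in the other hearts. A count of 0 allows up to 3 fragments, and such limits cover counting error only. Its mean was under the minimum of 0.5 FPKM set for testing, and the exact permutation test gave p = 1. Vehicle heart 4 thus had the highest value of each of the 3 ligand genes.

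**Figure D1:**
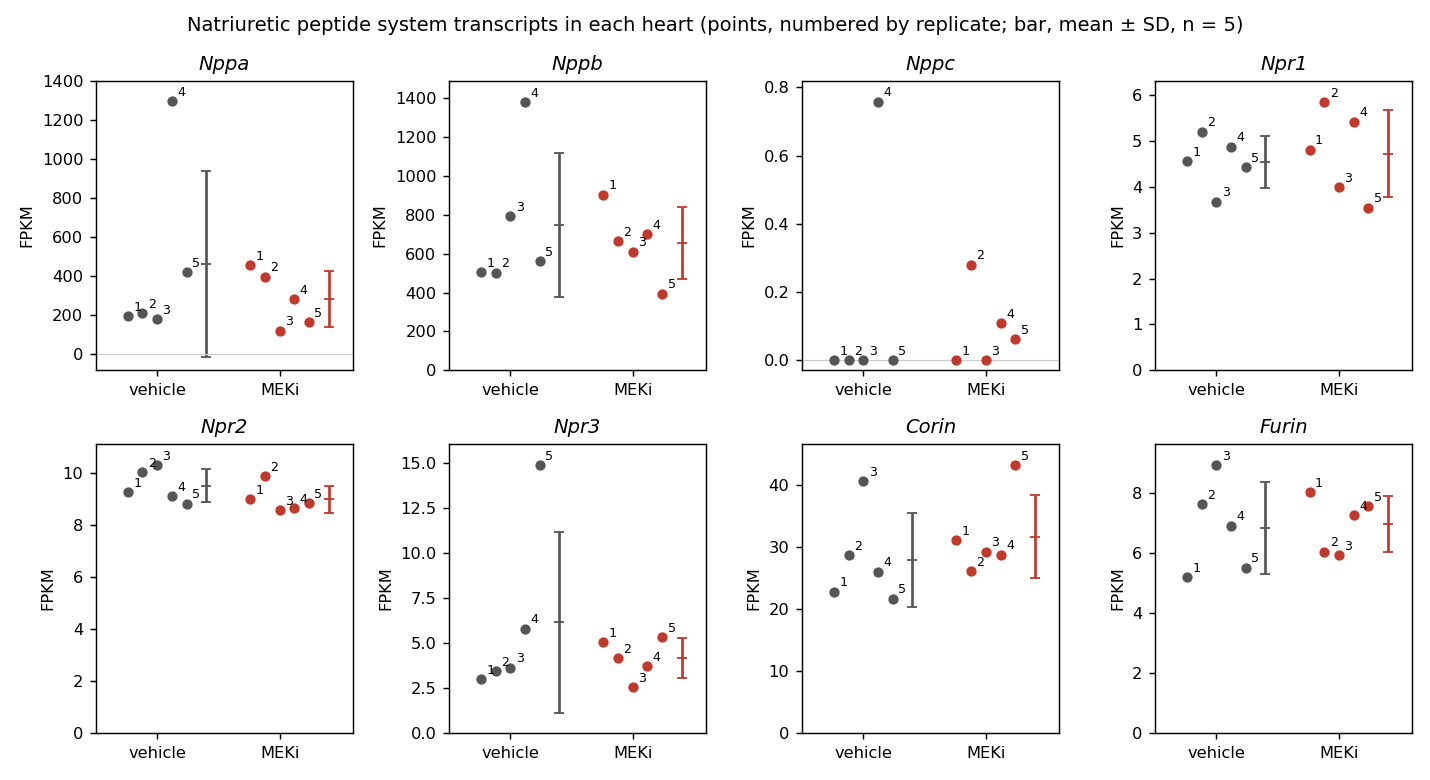
FPKM of the 8 genes in each heart, with vehicle hearts in grey and MEKi hearts in red, points numbered by replicate, and bars showing mean ± SD (n = 5; no bar for *Nppc*, which was near 0). Vehicle heart 4 is the highest point for *Nppa* (1298 FPKM), *Nppb* (1379 FPKM) and *Nppc* (0.758 FPKM), vehicle heart 5 is the highest for *Npr3* (14.9 FPKM), and the groups overlap in every panel.

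Since ANP is mainly an atrial product, transcripts that mark atrial cardiomyocytes were set beside the peptides. The summed level of 6 such transcripts (*Sln*, *Myl7*, *Myl4*, *Dkk3*, *Stard10* and *Bmp10*) was 39.7, 59.0, 13.7, 898 and 423 FPKM in vehicle hearts 1 to 5, and 19.2, 740.4, 23.8, 17.5 and 21.7 FPKM in MEKi hearts 1 to 5. Vehicle hearts 4 and 5 and MEKi heart 2 were the 3 high hearts, while *Sln*, the atrial regulator of the sarcoplasmic calcium pump, was at 0 in vehicle heart 3 and MEKi heart 1, and *Bmp10* was at 0 in those hearts, in vehicle heart 5 and in MEKi heart 4. Of the 6 markers, 5 passed the filter and all 5 had lower estimates in MEKi (0 of 5 with an unadjusted p under 0.05; median log2 difference, −2.23). The score over these markers did not differ between the groups beyond the spread (difference −0.50, exact permutation p = 0.405). The difference was −0.90 without MEKi heart 2, −0.83 without vehicle heart 3 and −0.20 without vehicle heart 4.

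The ratio of *Nppb* to *Nppa* was set beside the same markers. It was 2.59, 2.40, 4.44, 1.06 and 1.34 in vehicle hearts 1 to 5, and 1.99, 1.68, 5.13, 2.51 and 2.42 in MEKi hearts 1 to 5. The 3 lowest ratios were those of vehicle heart 4, vehicle heart 5 and MEKi heart 2, the hearts with the high atrial markers. *Nppa* itself was at 1298, 419 and 396 FPKM in vehicle heart 4, vehicle heart 5 and MEKi heart 2, above all other hearts except MEKi heart 1. *Nppb* was at 1379, 561 and 664 FPKM in the same hearts. For *Nppb*, vehicle heart 5 and MEKi heart 2 were inside the range of the hearts with lower atrial markers. MEKi heart 1 had 454 FPKM of *Nppa* with 1.58 FPKM of *Myl7*, the atrial regulatory light chain, whereas MEKi heart 2 had 396 FPKM of *Nppa* with 519.5 FPKM of *Myl7*. The log2 ratio differed by 0.28 between the groups (exact permutation p = 0.548). Without the 3 hearts with high atrial markers, the difference of *Nppa* was 0.20 (95% confidence interval −0.70 to 1.10), that of *Nppb* was 0.095 (−0.55 to 0.74) and that of the log2 ratio was −0.11. With the atrial score as a covariate, the difference of *Nppa* was −0.057.

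**Figure D2:**
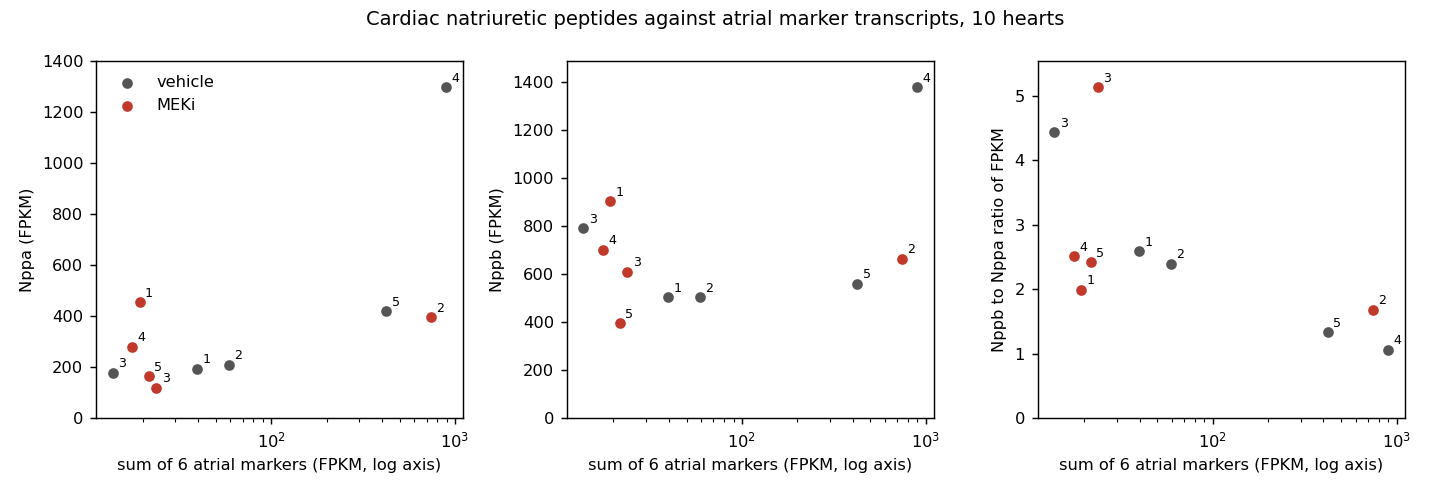
*Nppa* (left), *Nppb* (middle) and the ratio of *Nppb* to *Nppa* (right) in each of 10 hearts against the sum of 6 atrial marker transcripts in FPKM on a log axis, with vehicle in grey, MEKi in red and numbers giving the replicate. The 3 hearts on the right of each panel, vehicle 4, vehicle 5 and MEKi 2, have the 3 lowest ratios (1.06, 1.34 and 1.68).

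Vehicle heart 4 was also examined for 7 other transcripts that change, up or down, with load on the heart. Of the 7, 3 had their highest value in this heart, and 6.60% of all genes tested did. These were *Ankrd1*, a stretch-responsive sarcomere protein (1361 FPKM, others 515 to 835), *Myh7*, the fetal slow myosin (60.9 FPKM, others 19.5 to 50.1), and *Ctgf*, a matricellular growth factor (73.3 FPKM, others 24.8 to 58.4). They were singled out after their values had been seen. The same heart was highest for 4 of the 5 atrial markers that passed the filter. It was also highest for 3 of 4 epicardial markers, so the list of load transcripts did not stand alone. The part of atrial tissue, load or library in the high values of vehicle heart 4 was not tested.

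The receptor transcripts were far less abundant than the ligand transcripts, and none differed between the groups beyond the spread. In FPKM, *Npr2* was above *Npr1* in 10 of 10 hearts without overlap of their ranges and above *Npr3* in 9 of 10 hearts. *Npr3* was higher than *Npr1* in 4 of 10 hearts, so the order of these neighbours was not fixed.

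*Npr1* (chr3:90450591-90465866, minus strand) was at 4.56, 5.21, 3.68, 4.88 and 4.44 FPKM in vehicle hearts 1 to 5, and at 4.82, 5.85, 4.00, 5.42 and 3.55 FPKM in MEKi hearts 1 to 5. Its 2 lowest hearts were vehicle heart 3 and MEKi heart 5, and the groups overlapped over nearly their whole range. The means of 4.55 ± 0.574 and 4.73 ± 0.956 FPKM (SD, n = 5 each) differed by 0.039 on the log2 scale (95% confidence interval −0.28 to 0.36, limma adjusted p = 0.964, exact permutation p = 0.802).

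*Npr2* (chr4:43631935-43651244, plus strand) was the steadiest member. It was at 9.27, 10.03, 10.3, 9.11 and 8.82 FPKM in vehicle hearts 1 to 5, and at 8.99, 9.89, 8.58, 8.65 and 8.85 FPKM in MEKi hearts 1 to 5, with the highest heart 1.20 times the lowest. Its residual spread was 0.0882 on the log2 scale, and 98.4% of the genes tested had a larger one. The difference of −0.079 (95% confidence interval −0.26 to 0.0996, limma adjusted p = 0.857, exact permutation p = 0.190) corresponded to 0.947-fold, with an interval from 0.836 to 1.07. This was the narrowest interval among the 7 genes tested.

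*Npr3* (chr15:11839896-11907287, minus strand) was at 2.98, 3.44, 3.62, 5.79 and 14.9 FPKM in vehicle hearts 1 to 5, and at 5.06, 4.16, 2.55, 3.70 and 5.33 FPKM in MEKi hearts 1 to 5. Vehicle heart 5 stood at 4.22 times the median of the other vehicle hearts, and the other 9 hearts overlapped. The means of 6.15 ± 5.01 and 4.16 ± 1.12 FPKM (SD, n = 5 each) gave a difference of −0.32 (95% confidence interval −1.16 to 0.52, limma adjusted p = 0.889, exact permutation p = 0.603). Without vehicle heart 5, the difference was 0.071 (limma adjusted p = 0.987).

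NPR-C is known from endothelium and endocardium, and 4 of 5 endothelial markers (*Pecam1*, *Cdh5*, *Tie1* and *Emcn*) also had their highest value in vehicle heart 5, as did 16.0% of all genes tested. The same heart was highest for 3 of 3 macrophage markers and for 3 of 3 red cell markers, so the endothelial list did not stand alone. The summed level of the 5 endothelial markers was between 94.2 and 158 FPKM in vehicle hearts and between 93.8 and 116 FPKM in MEKi hearts, and none was at 0. *Emcn*, an endothelial sialomucin, was at 20.1 FPKM against 7.93 to 12.7 FPKM in the other hearts, and *Pecam1*, an endothelial adhesion molecule, was at 50.2 FPKM against 23.4 to 34.6 FPKM, both singled out after their values had been seen. In bulk tissue, more cells of a type and more RNA per cell cannot be told apart. The ratio of *Npr3* to *Npr1*, clearance receptor to signalling receptor, was between 0.660 and 3.30 in vehicle and between 0.645 and 1.49 in MEKi hearts, and its log2 value differed by −0.35 between the groups (exact permutation p = 0.548).

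Of the processing proteases, *Corin* was the third most abundant member and *Furin* was at the level of the receptors. Neither differed between the groups beyond the spread. *Corin* was below *Nppa* and above *Npr2* in 10 of 10 hearts, without overlap of the ranges. *Furin* was below *Npr2* in 10 of 10 hearts with overlapping ranges, and above *Npr3* in 9 of 10.

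*Corin* (chr5:72300025-72504473, minus strand) was at 22.8, 28.7, 40.6, 26.04 and 21.6 FPKM in vehicle hearts 1 to 5, and at 31.1, 26.1, 29.2, 28.7 and 43.2 FPKM in MEKi hearts 1 to 5. MEKi heart 5 and vehicle heart 3 stood apart at the top, and the other hearts of both groups overlapped. The means were 27.9 ± 7.58 and 31.7 ± 6.69 FPKM (SD, n = 5 each), with a difference of 0.20 (SE 0.18, 95% confidence interval −0.20 to 0.59, limma adjusted p = 0.826, exact permutation p = 0.357). Without vehicle heart 3, the difference was 0.34, and *Corin* then had an unadjusted p under 0.05 but an adjusted p of 0.484 (limma). In that setting, 1253 of all 12629 genes tested had an unadjusted p under 0.05, and *Corin* was the only member among them.

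*Furin* (chr7:80388585-80405436, minus strand) was at 5.18, 7.62, 8.91, 6.90 and 5.50 FPKM in vehicle hearts 1 to 5, and at 8.01, 6.04, 5.92, 7.25 and 7.54 FPKM in MEKi hearts 1 to 5. Vehicle heart 3 was the highest and vehicle heart 1 the lowest, so the MEKi hearts lay inside the vehicle range. The difference was 0.045 (95% confidence interval −0.29 to 0.38, limma adjusted p = 0.963, exact permutation p = 0.794). *Corin* and *Furin* had a Pearson r of 0.79 over the 10 hearts, the highest of the pairs of members.

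Vehicle heart 3 and MEKi heart 5 also had the highest balance of long over short genes. The balance, the median log2 deviation from the mean over the hearts for 4604 genes over 5000 bases minus that of 1924 genes under 1500 bases, was −0.23, 0.046, 0.35, −0.090 and 0.024 in vehicle hearts 1 to 5, and 0.022, −0.17, −0.069, −0.13 and 0.099 in MEKi hearts 1 to 5. *Corin* and *Furin*, with gene lengths of 5400 and 9178 bases in the table, belong to the long genes. So does *Npr3*, the longest member at 9389 bases, which was not high in vehicle heart 3 (3.62 FPKM) and was highest in vehicle heart 5. In MEKi heart 5, *Furin* was below MEKi heart 1 and vehicle heart 2. *Npr1*, at 4783 bases, had its lowest values in the same 2 hearts. Without both hearts, the difference of *Corin* was 0.22 (95% confidence interval −0.021 to 0.46, limma adjusted p = 0.636), and with the trend on gene length removed in each heart it was 0.20. The part of RNA fragmentation or library preparation in these values was not tested.

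**Figure D3:**
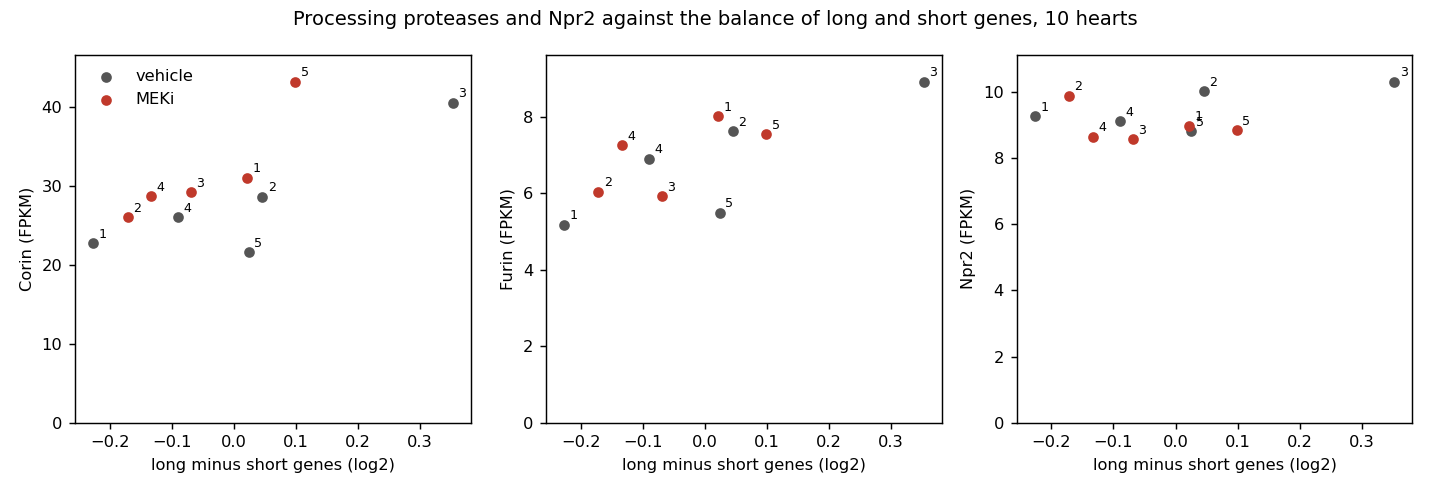
*Corin* (left), *Furin* (middle) and *Npr2* (right) in FPKM against the balance of long over short genes (log2) in each of 10 hearts, with vehicle in grey, MEKi in red and numbers giving the replicate. Vehicle heart 3 (balance 0.35) and MEKi heart 5 (0.099) have the highest balance and the highest *Corin*, whereas *Npr2* stays between 8.58 and 10.3 FPKM.

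Across the system, 7 of the 8 genes passed the filter on low values, and *Nppc* did not. With limma, 0 of the 7 had an adjusted p under 0.05 (range, 0.826 to 0.964), where 0.0794% of all genes tested did. When X, Y and mitochondrial genes were left out, 0 of all genes tested did. Of the 7, 0 had an unadjusted p under 0.05, against 7.62% of all genes, and 0 had groups of hearts that did not overlap, against 1.64% of all genes. The estimates were higher in MEKi for *Npr1*, *Corin* and *Furin* and lower for *Nppa*, *Nppb*, *Npr2* and *Npr3*, with a median of −0.079 beside 0.011 for all genes tested. This median turned to 0.066 without vehicle heart 4 and to 0.014 without MEKi heart 5. The smallest p that the exact test could give with 5 hearts per group was 0.00794. These tests do not show that the levels were equal, and the intervals left room for larger changes in *Nppa* and *Npr3* than in *Npr1*, *Npr2* and *Furin*.

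**Figure D4:**
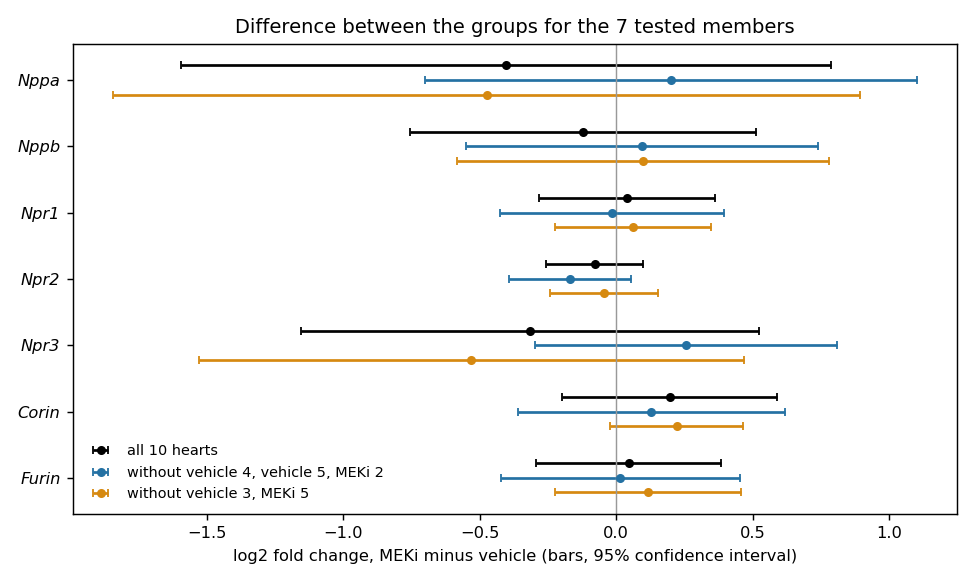
Log2 fold change, MEKi minus vehicle, with 95% confidence intervals for the 7 genes tested, over all 10 hearts (black), without the 3 hearts with high atrial markers (blue) and without the 2 hearts with the highest balance of long genes (orange). Every interval shown includes 0, and the points of *Nppa* move from −0.40 to 0.20 and those of *Npr3* from −0.32 to 0.25 without vehicle 4, vehicle 5 and MEKi 2.

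Genes that act before and after the peptides were compared in the same way. In each list, 0 genes had a limma adjusted p under 0.05. Of 15 genes of cGMP signalling, the pathway below NPR-A and NPR-B, 9 passed the filter, 6 with higher and 3 with lower estimates (median log2 difference, 0.21). The most abundant was *Vasp*, an actin regulator and substrate of the cGMP-dependent kinase, at 11.4 ± 2.28 FPKM in vehicle and 11.1 ± 0.702 FPKM in MEKi (SD, n = 5 each). *Pde3a*, a phosphodiesterase inhibited by cGMP, was 1 of the 9 with an unadjusted p under 0.05, a share near the 7.62% of all genes tested (3.93 ± 0.660 FPKM in vehicle and 4.95 ± 0.771 FPKM in MEKi, log2 difference 0.33, limma adjusted p = 0.609). *Prkg1*, the cGMP-dependent kinase itself, and *Pde5a*, a phosphodiesterase of cGMP, were under the filter, and both were looked up after the values had been seen.

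Of 8 other genes listed for processing, degradation or clearance of the peptides, 5 passed the filter, 2 with higher and 3 with lower estimates (median, −0.078). *Ece1*, the endothelin-converting enzyme, was the most abundant at 21.8 FPKM over all hearts. *Ide*, the insulin-degrading enzyme, which also cleaves natriuretic peptides, was at 7.87 ± 1.21 FPKM in vehicle and 9.72 ± 1.58 FPKM in MEKi (SD, n = 5 each; log2 difference 0.30, limma adjusted p = 0.640).

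All 15 genes listed here as transcriptional regulators of *Nppa* or *Nppb*, activators and repressors together, passed the filter, 13 with higher and 2 with lower estimates (median, 0.12). An unadjusted p under 0.05 was found for 3 of the 15, against 7.62% of all genes tested, and for 2 of these, *Nkx2-5* and *Mef2a*, the groups of hearts did not overlap, against 1.64% of all genes. *Nkx2-5*, the cardiac homeobox factor, was the most abundant, at 51.6, 55.1, 51.6, 42.5 and 43.9 FPKM in vehicle hearts 1 to 5 and at 58.2, 57.4, 65.4, 60.0 and 59.2 FPKM in MEKi hearts 1 to 5. Each MEKi heart was thus above each vehicle heart, with a log2 difference of 0.30 (SE 0.092, limma adjusted p = 0.461). *Mef2a*, a MADS-box factor of muscle genes, ranged from 5.97 to 7.47 FPKM in vehicle and from 7.60 to 9.33 FPKM in MEKi hearts (log2 difference 0.31, limma adjusted p = 0.461). *Tbx3*, a T-box repressor of the working-muscle program, was at 1.18 ± 0.107 FPKM in vehicle and 0.859 ± 0.200 FPKM in MEKi (SD, n = 5 each; log2 difference −0.44, limma adjusted p = 0.579), with overlapping groups. None of the 3 passed the adjusted threshold. The list was chosen with earlier results of these data known, so its shares beside those of all genes are a description only.

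Of the 7 transcripts of haemodynamic stress, all passed the filter, 4 with higher and 3 with lower estimates (median, 0.099, and −0.085 without MEKi heart 2). The list holds transcripts that rise and transcripts that fall with load, so these counts and this median have no single expected direction. *Myh6*, the adult fast myosin, was the most abundant, at 2044 ± 368 FPKM in vehicle and 2494 ± 336 FPKM in MEKi (SD, n = 5 each). *Xirp2*, an actin-binding protein of the intercalated disc, was at 28.9, 26.9, 36.7, 32.5 and 25.0 FPKM in vehicle hearts 1 to 5 and at 20.5, 25.1, 21.4, 20.4 and 20.5 FPKM in MEKi hearts 1 to 5. MEKi heart 2 and vehicle heart 5 were the only hearts in which the groups met, and the log2 difference of −0.46 had a limma adjusted p of 0.314.

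**Figure D5:**
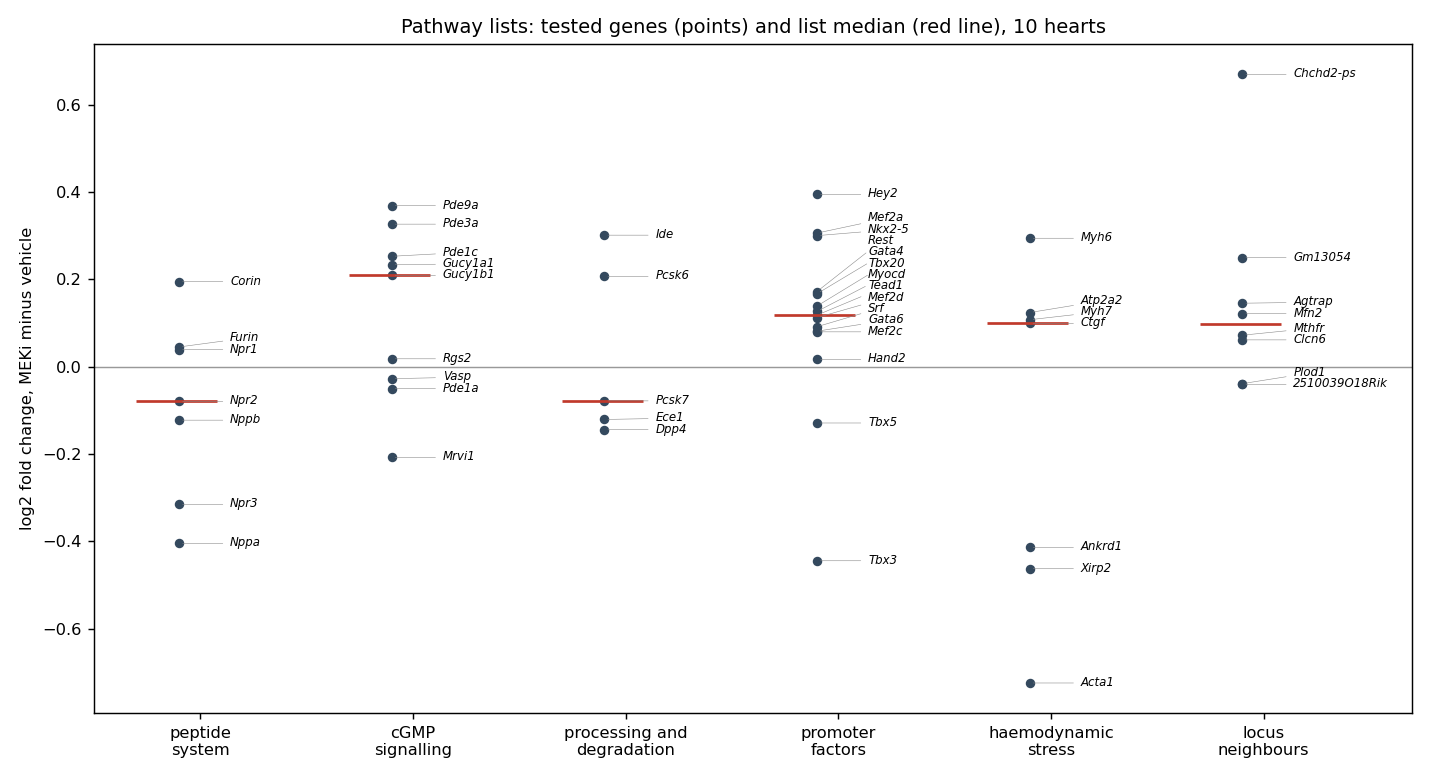
Log2 fold change, MEKi minus vehicle, of the tested genes of the peptide system and of 5 related lists, 1 point per gene, with the median of each list as a red line. The medians lie between −0.079 and 0.21, and 0 of the points shown belong to a gene with an adjusted p under 0.05.

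The genes whose pattern over the 10 hearts was most like that of each member were searched among 10698 genes, by Pearson r of log2(FPKM + 0.1). All r given here are descriptions over hearts that share their libraries. For *Nppa*, these were *Smad7* (r = 0.88), *C77080* and *B9d1*, and r of *Smad7* was 0.49 without vehicle heart 4 and MEKi heart 3. For *Nppb*, they were *Gm10443* (r = 0.87), *Rpia* and *Chst15*. The nearest to *Npr1* were *Pgd* (r = 0.92), *Hyal2* and *Pmepa1*, and those nearest to *Npr2* were *Rdh13* (r = 0.96), *Cyhr1* and *Elavl1*. For *Npr3*, they were *Sost* (r = 0.94), *Cgnl1* and *Actn4*, each highest in vehicle heart 5. *Corin* was most like *Prkaa2* (r = 0.99), *Atf6* and *Pdha1*, and *Furin* was most like *Pdk1* (r = 0.97), *Pmpcb* and *Vps26b*. *Prkaa2* was at 13.7 FPKM in vehicle heart 3 and 15.0 FPKM in MEKi heart 5, its 2 highest hearts, as for *Corin*. Each r was lower when the 2 hearts farthest from the median of the member were left out, as done above for *Smad7*. It then ranged from 0.40 for *Chst15* with *Nppb* to 0.96 for *Atf6* with *Corin*.

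Some members overlap other annotated genes, and the strand setting of the counting is not given in the sources used here, so reads of overlapping genes on opposite strands may not be told apart. The overlapping genes were named after their values had been seen. The antisense gene *Gm13054* overlaps *Nppa* by 989 bases. It was at 0.0846 to 2.01 FPKM, and it was highest in vehicle heart 4, the heart with the highest *Nppa*. *Npr2* overlaps *Gm12473* on the opposite strand, which was at 0.475 to 2.48 FPKM. The genes on the opposite strand that overlap *Npr1*, *Npr3*, *Corin* and *Furin* were at most 0.581 FPKM in each heart. On the same strand as *Corin*, the overlapping snRNA gene *Gm25768* was at 5.61 FPKM in vehicle heart 5 and 1.19 FPKM in MEKi heart 2. It was at 0 in the other hearts and had at most 8 fragments. Other same-strand genes that overlap *Corin* were at most 0.461 FPKM.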

How the data were processed

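Poly(A)-selected RNA from 10 hearts, 5 per group, was sequenced by the authors, who deposited 1 table of FPKM with gene lengths and coordinates. The submitters' processing notes name fastp, STAR 2.5, HTSeq 0.6.1 and mm10 without giving their roles, and the annotation and strand setting are not given in the sources used here. Coordinates of 98.3% of 54409 gene IDs, including all 8 members, equal those of GENCODE M21 (GRCm38). FPKM times gene length was a whole multiple of 1 step for 100% of values in each heart (tolerance 0.001), which gave the fragments. Groups came from the labels.

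Groups were compared on log2(FPKM + 0.1) by limma 3.58.1 under R 4.3.3 (eBayes with a mean-variance trend, two-sided). Genes entered if they averaged 0.5 FPKM or more, with Benjamini-Hochberg adjustment over all genes tested and a threshold of 0.05. This scale understates the change of low genes. Two-sided exact permutation tests over 252 assignments of hearts were run in Python 3.11.15 with scipy 1.17.1. The fit was tested on simulated data. The labels call the replicates biological, and the same replicate numbers in the 2 groups did not pair the hearts (correlations of deviations from −0.154 to −0.0209).

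The members and lists were chosen with earlier results of these data known. Named were the members, in each list the most abundant gene and up to 5 genes with an unadjusted p under 0.05, the atrial markers, the 3 genes most like each member (mean of at least 1 FPKM), *Xist* and *Ddx3y*. Other named genes are said to have been chosen after their values were seen. Alternatives were pseudocounts of 1 and 0.01, other filters (none, and a mean of at least 5 FPKM), TPM scale, quantile normalization, eBayes without trend, voom on fragments, omission of X, Y and mitochondrial genes, the atrial score as covariate, omission of hearts and the replicate block. Chosen after seeing the data were the omission of vehicle heart 3 and MEKi heart 5 and removal of the trend with gene length. All 8 members matched a RefSeq promoter. A comparison of coding sequence between the ligand genes is not reported here.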

Additional observations from a re-analysis of the deposited data

Results flagged for a closer look

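In 22 groups of 5 hearts examined (each member, the ratios and the atrial score in each treatment group), the highest or lowest heart was tested for standing apart by Dixon's criterion. Chance meets it in about 1 of 20 groups of normally distributed values. The members were taken in FPKM and not on the log2 scale, so that rate need not hold for them. It was met 4 times. *Nppa* was at 1298 FPKM in vehicle heart 4, with the other vehicle hearts between 178 and 419 FPKM. *Nppc* was at 0.758 FPKM in the same heart, with 0 in the other vehicle hearts, so that any count above 0 would have met the criterion. *Npr3* was at 14.9 FPKM in vehicle heart 5, with the others between 2.98 and 5.79 FPKM. The atrial marker score was 1.38 in MEKi heart 2, with the other MEKi hearts between −0.83 and −0.41.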

How the results depend on the processing

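Of the members, 0 had an adjusted p under 0.05 under each of the 24 alternatives (limma), and the lowest adjusted p was 0.484, for *Corin* without vehicle heart 3. The direction of *Npr2* and *Corin* was kept under each alternative. The direction turned under at least 1 alternative for *Nppa*, *Nppb*, *Npr1*, *Npr3* and *Furin*, none of which passed the threshold. Without vehicle hearts 4 and 5 and MEKi heart 2, the log2 difference was 0.20 for *Nppa*, 0.095 for *Nppb*, −0.015 for *Npr1* and 0.25 for *Npr3*, and that of the log2 ratios was −0.11 for *Nppb* to *Nppa* and 0.27 for *Npr3* to *Npr1*. It was 0.098 for *Nppb* without vehicle heart 3 and MEKi heart 5, and −0.017 for *Furin* with the atrial score as covariate. Leaving out 1 heart at a time gave ranges of −0.63 to 0.088 for *Nppa* (turned without vehicle heart 4), −0.25 to 0.13 for *Nppb* (vehicle heart 4 or MEKi heart 5), −0.042 to 0.13 for *Npr1* (vehicle heart 3, MEKi heart 2 or MEKi heart 4), −0.50 to 0.071 for *Npr3* (vehicle heart 5), −0.045 to 0.15 for *Furin* (vehicle heart 1, vehicle heart 5 or MEKi heart 1), 0.028 to 0.56 for the ratio of *Nppb* to *Nppa* and −0.55 to 0.038 for that of *Npr3* to *Npr1*. Over all genes, 10 had an adjusted p under 0.05, against 2 with a mean of at least 5 FPKM (fewer genes tested), 5 without vehicle hearts 4 and 5 and MEKi heart 2, and 5 to 13 when 1 heart was left out (5 without vehicle heart 2, 6 without vehicle heart 5). Without X, Y and mitochondrial genes, limma gave 0, with 924 at an unadjusted p under 0.05. With the replicate number as a block, 4 genes passed, 0 of 5 vehicle hearts correlated best with the MEKi heart of the same number, and the block changed no call of a member. The medians over lists moved too. Over the alternatives, that of the members ranged from −0.11 to 0.095, cGMP signalling from −0.0046 (mean of at least 5 FPKM) to 0.26, processing and degradation from −0.10 to 0.21 (mean of at least 5 FPKM), haemodynamic stress from −0.085 to 0.18 (below 0 without vehicle heart 1, 2 or 5 or MEKi heart 1 or 2), promoter factors from 0.038 to 0.20 and locus neighbours from 0.030 to 0.18. The atrial score difference ranged from −0.90 (without MEKi heart 2) to −0.20 (without vehicle heart 4). *Npr1* was under that filter, and *Nppc* could be tested only without a filter (log2 difference 0.11, limma adjusted p = 0.968). The cause of these changes was not tested, apart from the fewer genes or hearts that the settings leave. Depth limits *Nppc*, which had at most 11 fragments per heart, and the spread of the hearts limits *Nppa* and *Npr3*.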

Other observations

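The genes within 100 kb of *Nppa* and *Nppb* were read for the same groups. Of 11 neighbours, 8 passed the filter, 6 with higher and 2 with lower estimates in MEKi (median log2 difference, 0.097), and 0 had an adjusted or an unadjusted p under 0.05 (limma). *Mfn2*, a mitofusin of the outer mitochondrial membrane, was the most abundant, at 90.3, 104, 125, 107 and 78.2 FPKM in vehicle hearts 1 to 5 and at 116, 98.6, 95.01, 108 and 128 FPKM in MEKi hearts 1 to 5. Vehicle heart 4, the highest heart for *Nppa* and *Nppb*, was inside the range of the other hearts for *Mfn2*, and the 2 highest hearts for *Mfn2* were MEKi heart 5 and vehicle heart 3.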
